A study of Macaca mulatta with 12 samples.

Results

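The enzymes that attach ubiquitin to proteins and the enzymes that remove it were followed in the dorsal raphe of female rhesus monkeys treated with ovarian hormones. A gene was taken as a member when its symbol in the array's probe-to-gene table began with UBE2, with UBA or USP and a number, or with OTUD, OTUB or UCHL (USP16 was left out), so no measured value entered the choice. These prefixes held 76 genes, of 14132 genes with a symbol of their own in that table, on 174 probe sets. Of the 76 genes, 65 had at least 1 probe set bright enough to be tested (135 probe sets in all), and 11 had none.

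The RNA came from 12 female rhesus monkeys, 1 monkey per Affymetrix rhesus array, with 3 animals in each of 4 groups: placebo, estrogen, progesterone, and estrogen with progesterone. Silastic capsules holding crystalline steroid had been placed under the skin for 1 month. The placebo animals carry the code OVX in their titles, read here as ovariectomized; the other titles carry no such code, so the ovarian state of the treated animals is not given by the labels. The progesterone arrays are titled progesterone with the code EP and described with the code P, and were taken as progesterone alone. The tissue is named a dorsal raphe block, a piece of midbrain that holds serotonin neurons among other neurons, glia and vessels. In such a block, fewer cells of a type and less RNA per cell cannot be told apart.

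Ubiquitin is a small protein that marks other proteins, most often for destruction by the proteasome. An activating enzyme (E1; the UBA genes) charges ubiquitin or a relative such as ISG15, NEDD8 or SUMO, a conjugating enzyme (E2; the UBE2 genes) receives it, and a ligase (E3) passes it to the target. Deubiquitinases cut it off again, and those on the list belong to the USP, OTU (OTUB, OTUD) and UCH (UCHL) families. Neurons rely on this system to turn over synaptic proteins and receptors, and UCHL1 is one of the abundant proteins of neurons.

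Values are given as log2 intensity, after the arrays were quantile normalised, and differences are on the same log2 scale, with the standard error (SE) of the limma fit. An adjusted p is limma's, two-sided, with Benjamini-Hochberg adjustment over all 26383 probe sets tested, and a probe set passed at an adjusted p under 0.05. Levels are compared only within a probe set.

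The arrays of the whole series differed in ways that may bear on the members' values. The 3 progesterone arrays had the lowest difference between the 3′ and 5′ probe sets of the control gene EF1A (-0.37 to -0.31, against -0.08 to 0.74 in the other 9 arrays). The same difference was 0.11 to 0.59 under progesterone for GAPDH (0.34 to 1.11 in the other 9) and 0.66 to 1.23 for actin (0.11 to 0.90), so the 3 controls did not move together. Replicate 1 of placebo, of estrogen and of the combined group stood apart on the first principal component (-51.6, -44.9 and -44.0, against -1.64 to 29.0 in the other 9). On the second component, with 17.2% of the variance, the progesterone arrays stood apart (-14.1, -46.3 and -54.5, against 0.50 to 20.4 in the other 9). Of 8 serotonin neuron markers on the list, 6 were on the array and 4 were bright enough to be tested (TPH2, FEV, SLC18A2 and GCH1). Their mean level was 8.48 to 9.22 in placebo and 8.78 to 9.25 under estrogen. It was 8.65 to 9.21 under both hormones and 7.77 to 8.70 under progesterone. These 4 had passed a filter on brightness, so their mean does not show that each serotonin marker was detected in each array. Cerebellar neuron markers (4 tested of 8) reached 8.90 in the estrogen group, 8.28 under both hormones and 7.84 under progesterone, against at most 7.63 in placebo. Oligodendrocyte markers (4 tested of 8) were at 11.27 to 11.63 under estrogen, against 11.66 to 11.76 in placebo. Ependyma markers (3 tested of 6) were at 6.53 to 7.33 under progesterone, against 7.30 to 7.44 in placebo. The part of these differences in the members' values was not tested, other than by leaving out the 3 first arrays. The value without them is given beside some of the named members' values only, so its absence does not mean that a value held.

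Most of these enzymes were bright enough to be tested, which is not a call of detection in each array. All 3 UCHL genes, 4 UBA genes, 21 UBE2 genes, 28 USP genes and 9 OTU genes were tested. The 11 not tested were OTUD7A, UBE2K, UBE2T, UBE2U, USP26, USP27X, USP29, USP36, USP45, USP49 and USP6NL-AS1, whose brightest probe sets had means from 2.33 (USP26) to 6.10 (UBE2T), under the limit of 6.31. USP6NL-AS1 is an antisense RNA that the prefix takes in, not an enzyme. The limit of 6.31 applied to the mean over all arrays. Single progesterone arrays of UBE2M, UBE2J2, USP21 and USP28 lay under it, on probe sets whose values are given below. The spread between animals of a group was similar to that of the array as a whole: the median residual SD was 0.248 over the 135 member probe sets and 0.279 over all tested. It was smallest for a probe set of UBE2D2 (0.080) and largest for one of USP14 (1.41), both named here after their values were seen.

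No member passed the test in any comparison. In each of the 8 contrasts and in the F test over the 4 groups, 0 of 135 member probe sets reached an adjusted p under 0.05. The array as a whole gave few calls too: 0% of probe sets for estrogen against placebo, 0% for both hormones against placebo, 0.133% for progesterone against placebo, 0% for both hormones against estrogen, 0.0834% for both hormones against progesterone, 0% for estrogen present against absent, 0% for progesterone present against absent, 0% for the interaction and 0.0758% in the F test. The median half-width of the 95% confidence interval of a member's pairwise difference was 0.45, without adjustment for the number of tests. For a typical member, an estimated difference under about that size thus had an interval that included 0.

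Estrogen alone gave the fewest member probe sets with a low p. At an unadjusted p under 0.05, 1 of 135 member probe sets differed from placebo (0.741%, against 2.65% of all tested), and the lowest adjusted p of a member was 0.9997. All 3 estrogen arrays lay outside the placebo range for 14 member probe sets (10.4%, against 7.54%), 10 above and 4 below. The members' median difference was 0.0014, and that of all probe sets -0.0067. The probe set with the lowest p was that of OTUD3, a deubiquitinase of the OTU family, at 0.52 ± 0.20, while its other tested probe set was at -0.01 ± 0.42.

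Estrogen with progesterone gave 6 member probe sets at an unadjusted p under 0.05 (4.44%, against 3.85%), 3 higher and 3 lower than placebo, with a lowest adjusted p of 0.9988. All 3 arrays lay outside the placebo range for 21 (15.6%, against 10.5%), 12 above and 9 below. The members' median difference was 0.022, beside -0.012 over all. UBE2R2, a conjugating enzyme, had the lowest p among the higher ones (0.41 ± 0.13), and UBE2D1 among the lower ones (-0.53 ± 0.19).

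Progesterone alone stood farthest from placebo, for the members as for the array. The count at an unadjusted p under 0.05 was 18 (13.3%, against 9.87%), 11 higher and 7 lower, and the lowest adjusted p was 0.121, that of USP1. All 3 progesterone arrays lay outside the placebo range for 25 (18.5%, against 15.3%), 15 above and 10 below. The members' median difference was 0.003, beside -0.023 over all. The largest differences in this comparison belonged to UBE2M (lower) and UBA7 (higher), whose values per array are given with their classes.

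The same progesterone arrays were compared with those of both hormones. Here 22 member probe sets had an unadjusted p under 0.05 (16.3%, against 11.4%), 13 higher and 9 lower with both hormones than with progesterone alone, and the lowest adjusted p was 0.165. All 3 arrays lay outside the range of the progesterone arrays for 35 (25.9%, against 17% of all tested), 14 above and 21 below. This comparison shares its progesterone arrays with the one against placebo, so the 2 are not independent. Between both hormones and estrogen alone, 5 members had an unadjusted p under 0.05 (3.7%, against 2.98%), 2 higher and 3 lower, and 18 lay outside the range (13.3%, against 8.09%).

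The factorial contrasts gave counts between these. With estrogen present against absent, 15 member probe sets had an unadjusted p under 0.05 (11.1%, against 7.63%; lowest adjusted p = 0.546), and with progesterone present against absent 12 had (8.89%, against 6.25%; lowest adjusted p = 0.536). The interaction gave 11 (8.15%, against 6.4%; lowest adjusted p = 0.608), and the F test 17 (12.6%, against 7.54%; lowest adjusted p = 0.246). Probe sets of 1 gene are not independent, so these shares of members are descriptions. The plot of differences by class gives 1 point per gene.

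**Figure D1:**
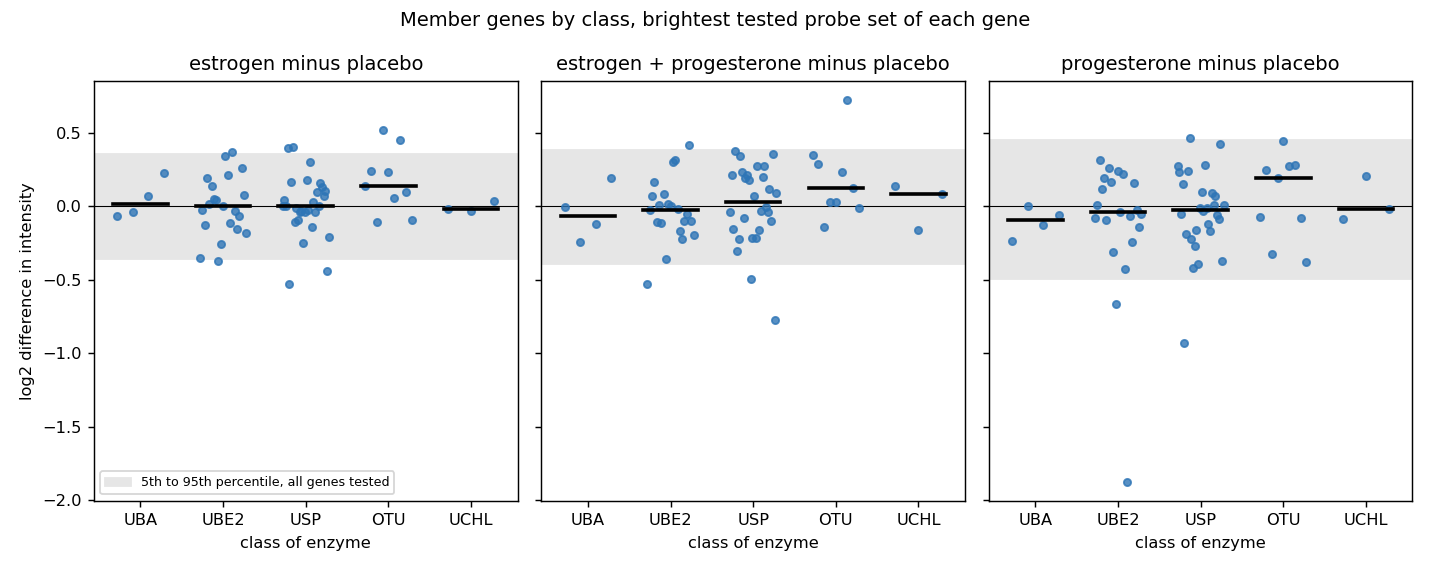
Log2 difference in intensity from placebo (vertical axis) for 65 member genes by class of enzyme (horizontal axis), in 3 panels for estrogen, estrogen with progesterone, and progesterone; points are genes, black bars class medians, and the grey band the 5th to 95th percentile of 9959 genes. Most members lie in the band in every panel, the OTU median is at 0.13 in the first and second panels, and UBE2M is the lowest point under progesterone (-1.87).

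By class, on the brightest tested probe set of each gene, the OTU deubiquitinases were above placebo in 7 of 9 genes under estrogen, 7 of 9 under both hormones and 5 of 9 under progesterone, where 49%, 47.1% and 43.9% of all 9959 genes were higher. Their medians were 0.13, 0.13 and 0.19. With estrogen present against absent, 8 of 9 were higher (all genes 52.4%), and 0 of the 9 passed the test. With arrays aligned on their medians in place of quantile normalisation, the counts were 7, 5 and 8 of 9; without the first arrays of placebo, estrogen and both hormones they were 6, 7 and 7 of 9.

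The 21 UBE2 genes split 10 higher and 11 lower under estrogen, 8 and 13 under both hormones, and 9 and 12 under progesterone, with medians of -5.1e-05, -0.028 and -0.042. The 28 USP genes split 15 and 13, 14 and 14, and 12 and 16, with medians of 0.0017, 0.030 and -0.024. The 4 UBA genes had medians of 0.015, -0.065 and -0.095, and the 3 UCHL genes -0.019, 0.085 and -0.021. Under median alignment the median of all genes in progesterone against placebo moved from -0.040 to -0.15, and 18 of the 65 members were then higher in place of 28, so single signs near zero depend on the scaling. In estrogen against placebo the same alignment gave 46 of 65 members higher in place of 35, and 20 of 28 USP genes in place of 15, where the share of all genes went from 49% to 56%.

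Among the activating enzymes, UBA1 is the main E1 for ubiquitin in the cell. Its brightest probe set read 11.21, 11.31 and 11.25 in the placebo arrays, 11.07, 11.28 and 11.23 under estrogen, 11.07, 11.33 and 11.36 under both hormones and 11.26, 10.92 and 10.88 under progesterone. The groups overlapped, and 2 of the progesterone arrays were the lowest of the 12. The difference of progesterone from placebo was -0.24 ± 0.15 (adjusted p = 0.661), with a 95% confidence interval of -0.57 to 0.10.

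UBA7 is the E1 for ISG15, a ubiquitin relative induced by interferon. A pair of its probe sets with the same ID stem, which are not independent of each other, had the largest upward differences among the members under progesterone. MmugDNA.12775.1.S1_x_at read 8.76, 10.45 and 11.02 in the placebo arrays, 10.82, 10.69 and 10.56 under estrogen, 11.01, 10.59 and 11.06 under both hormones and 11.50, 11.98 and 11.66 under progesterone. All 3 progesterone arrays lay above the other 9, and the first placebo array lay far below the rest. The difference from placebo was 1.64 ± 0.44 (adjusted p = 0.227), and it was 1.72 ± 0.47 (adjusted p = 0.231) on MmugDNA.12775.1.S1_at. Without the first arrays of placebo, estrogen and both hormones (the 3 first arrays) they were 0.95 and 0.99. The other 3 probe sets of UBA7 gave 0.18, -0.06 and 0.15, and the middle value is that of the brightest. UBE2L6, the E2 that takes ISG15 from UBA7, was lower under progesterone by its point estimate, at -0.43 ± 0.19 (adjusted p = 0.492), and ISG15 itself differed by 0.06 ± 0.26 (adjusted p = 0.968).

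**Figure D2:**
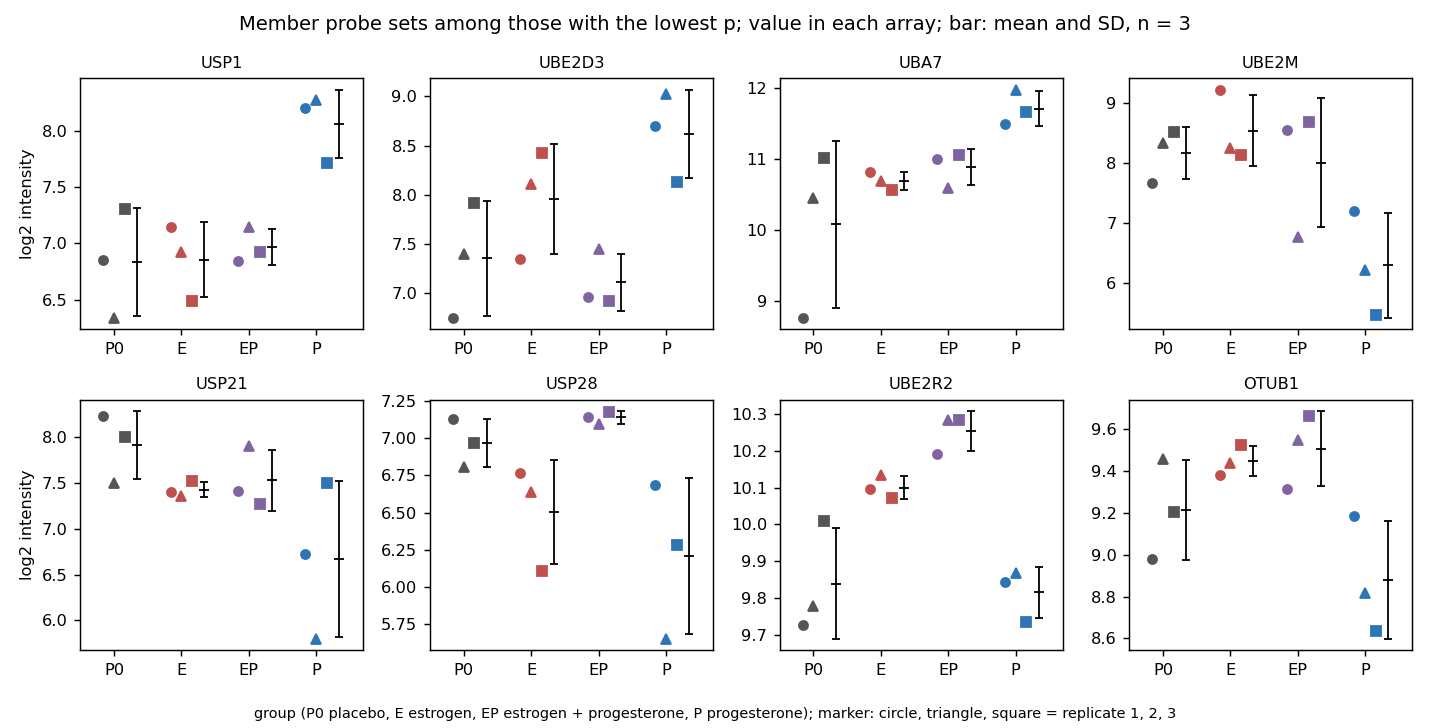
Log2 intensity (vertical axes) in each of the 12 arrays for 8 member probe sets among those with the lowest p, by group (horizontal axis); coloured markers are single arrays, and the black bar is the group mean with SD, n = 3. For USP1 and UBA7 all 3 progesterone arrays lie above the other 9, and for UBE2R2 the 3 arrays with both hormones lie above the rest.

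Of the conjugating enzymes, UBE2D3 belongs to a group of broadly used E2s that serve many ligases. Its probe set MmugDNA.25051.1.S1_at read 6.75, 7.40 and 7.92 in the placebo arrays, 7.34, 8.11 and 8.43 under estrogen, 6.96, 7.45 and 6.92 under both hormones and 8.70, 9.02 and 8.13 under progesterone. Every progesterone array was higher than every array of placebo or of both hormones, while the range of the estrogen arrays overlapped with that of progesterone. The difference from placebo was 1.26 ± 0.35 (adjusted p = 0.242), and both hormones minus progesterone was -1.51 ± 0.35 (adjusted p = 0.165). The interaction on this probe set was -2.11 ± 0.49 (adjusted p = 0.608). The other 3 probe sets of UBE2D3, MmugDNA.179.1.S1_at, MmugDNA.6893.1.S1_at and MmugDNA.7415.1.S1_s_at, gave 0.59, 0.31 and 0.16 against placebo, the same sign at a smaller size.

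UBE2M is the E2 that passes NEDD8 to cullins, the scaffold of a large family of ligases. Its only tested probe set read 7.68, 8.33 and 8.52 in the placebo arrays, 9.23, 8.26 and 8.15 under estrogen, 8.56, 6.77 and 8.69 under both hormones and 7.22, 6.22 and 5.48 under progesterone. The 3 progesterone arrays lay below the placebo and estrogen arrays, but 1 array with both hormones (6.77) lay within their range. The group means were 6.30 ± 0.87 (SD, n = 3) under progesterone and 8.18 ± 0.44 (SD, n = 3) in placebo. The difference from placebo was -1.87 ± 0.55 (adjusted p = 0.266) and both hormones minus progesterone was 1.70 ± 0.55 (adjusted p = 0.291). These were the largest downward and upward differences of any member in those comparisons. UBE2F, the other E2 for NEDD8, differed from placebo by 0.16 under progesterone on its brightest probe set.

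UBE2R2 extends ubiquitin chains on targets of cullin ligases. Its brightest probe set read 9.73, 9.78 and 10.01 in the placebo arrays, 10.10, 10.13 and 10.07 under estrogen, 10.19, 10.28 and 10.28 under both hormones and 9.84, 9.87 and 9.74 under progesterone. All 3 arrays with both hormones lay above every other array, and the 3 estrogen arrays lay above the placebo and progesterone arrays. The difference of both hormones from placebo was 0.41 ± 0.13 (adjusted p = 0.999), from progesterone 0.44 ± 0.13 (adjusted p = 0.262), and of estrogen from placebo 0.26 ± 0.13 (adjusted p = 0.9997). The other 2 tested probe sets of UBE2R2 gave 0.08 and -0.02 for both hormones minus placebo.

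UBE2J2 and UBE2J1 are E2s of the endoplasmic reticulum membrane that serve the disposal of misfolded proteins. MmugDNA.18518.1.S1_at of UBE2J2, chosen after its values were seen, read 5.65, 7.53 and 7.73 in the placebo arrays, 6.55, 7.63 and 7.31 under estrogen, 6.72, 7.67 and 7.63 under both hormones and 5.50, 6.10 and 6.04 under progesterone. The 3 progesterone arrays were the lowest but for the first placebo array, which lay within their range, and the first estrogen and combined arrays were the lowest of their groups. The difference of progesterone from placebo was -1.09 ± 0.50 (adjusted p = 0.506). Without the 3 first arrays it was -1.78 ± 0.22 (adjusted p = 0.0288), and both hormones minus progesterone was 1.80 ± 0.22 (adjusted p = 0.0346) in place of 1.46 ± 0.50 (adjusted p = 0.307), so this member passed in that subset, where 0.102% and 0.091% of all probe sets passed. The brightest probe set of UBE2J2 gave -0.04 and 0.34. UBE2J1 had 5 tested probe sets with differences under estrogen from -0.52 to 0.24, the former -0.23 without the 3 first arrays.

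UBE2L3, an E2 for ligases of the HECT and RBR types, had a probe set (MmugDNA.35627.1.S1_at) that read 8.57, 8.24 and 8.52 in the placebo arrays, 8.10, 7.97 and 8.23 under estrogen, 8.65, 8.79 and 8.63 under both hormones and 8.68, 8.62 and 8.16 under progesterone. All 3 estrogen arrays lay below those of placebo and of both hormones and overlapped with 1 progesterone array, and both hormones minus estrogen was 0.59 ± 0.17 (adjusted p = 0.9999). Its brightest probe set differed by 0.11 in that comparison, and by -0.03 without the 3 first arrays. UBE2G2, an E2 of endoplasmic reticulum disposal, was -0.67 ± 0.23 under progesterone, with 2 of the 3 progesterone arrays (6.99 and 7.05) below the rest. UBE2D1 was -0.36 ± 0.19 under estrogen and -0.53 ± 0.19 under both hormones, and -0.14 under estrogen without the 3 first arrays. UBE2N, which builds ubiquitin chains that signal rather than send proteins to the proteasome, ranged from 10.29 to 10.82 over all 12 arrays with no group apart.

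Among the USP deubiquitinases, USP1, which removes ubiquitin from proteins of DNA repair, had the lowest p of all members. Its probe set MmugDNA.17775.1.S1_s_at read 6.86, 6.34 and 7.30 in the placebo arrays, 7.15, 6.93 and 6.49 under estrogen, 6.84, 7.15 and 6.92 under both hormones and 8.20, 8.27 and 7.72 under progesterone. All 3 progesterone arrays lay above the other 9, with a mean of 8.06 ± 0.30 (SD, n = 3) against 6.83 ± 0.48 (SD, n = 3) in placebo. The difference of progesterone from placebo was 1.23 ± 0.26 (adjusted p = 0.121), with a 95% confidence interval of 0.66 to 1.79, and both hormones minus progesterone was -1.09 ± 0.26 (adjusted p = 0.178). Estrogen alone and both hormones differed from placebo by 0.02 and 0.14, and by -0.12 and 0.22 without the 3 first arrays. The brightest probe set of USP1 gave 0.27 ± 0.15 under progesterone, in the same direction and smaller. Without the 3 first arrays the difference on the former was 1.27.

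USP21 and USP28 each had a probe set with a lower mean under progesterone than in placebo. USP21, a deubiquitinase that acts on histone H2A, read 8.22, 7.50 and 7.99 in the placebo arrays, 7.39, 7.36 and 7.52 under estrogen, 7.41, 7.90 and 7.27 under both hormones and 6.73, 5.80 and 7.50 under progesterone on MmugDNA.17546.1.S1_at. The second progesterone array was the lowest and the third lay in the range of the other groups, and the difference from placebo was -1.23 ± 0.36 (adjusted p = 0.261), and -0.80 without the second progesterone array. Its brightest probe set, MmugDNA.11755.1.S1_s_at, was at -0.42 against placebo and both hormones minus progesterone was 0.61 ± 0.16 (adjusted p = 0.218). USP28, which stabilises MYC, read 7.13, 6.81 and 6.97 in the placebo arrays, 6.77, 6.64 and 6.11 under estrogen, 7.15, 7.10 and 7.18 under both hormones and 6.69, 5.65 and 6.28 under progesterone on MmugDNA.5026.1.S1_at. Against placebo this probe set was at -0.76 under progesterone (adjusted p = 0.337) and at -0.46 under estrogen (adjusted p = 0.9997), and the arrays of these groups overlapped. The 3 probe sets of USP28 ran from -0.76 to -0.01 under progesterone and from -0.46 to 0.11 under estrogen. All 3 arrays with both hormones lay above those of estrogen and of progesterone, and both hormones minus progesterone was 0.93 ± 0.25 (adjusted p = 0.217). The other 2 probe sets of USP28, which share an ID stem, gave -0.20 and -0.13 in that comparison, of the opposite sign.

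USP33, USP47 and USP25 each had probe sets that differed in size, and in USP47 and USP25 also in sign. Under progesterone against placebo, the 2 probe sets of USP33 gave 0.28 and 0.75, and those of USP25 -0.39 and 0.35. USP33, which acts on receptors such as ROBO1, read 7.58, 8.49 and 7.92 in the placebo arrays, 8.11, 8.33 and 7.64 under estrogen and 8.95, 9.05 and 8.25 under progesterone on MmugDNA.23313.1.S1_at, and had a mean of 8.03 ± 0.03 (SD, n = 3) under both hormones, with a difference of 0.75 ± 0.27 (adjusted p = 0.401) under progesterone; 1 placebo array lay above the lowest progesterone array. USP47, an enzyme of base excision repair and of cell adhesion, had 7 tested probe sets, and under progesterone they ran from -0.27 to 0.50. The highest of them read 8.06, 7.53 and 7.82 in the placebo arrays, 7.69, 7.81 and 7.84 under estrogen, 7.94, 7.91 and 8.10 under both hormones and 8.42, 8.29 and 8.22 under progesterone, and its 3 progesterone arrays were above all the others. USP25 was -0.90 ± 0.27 in both hormones minus progesterone on one probe set and -0.10 ± 0.18 on the brightest. USP53 was -0.77 ± 0.28 under both hormones against placebo on its only tested probe set, which rested in part on 1 array at 6.64 and was -0.46 without it.

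Under both hormones against placebo, USP42, USP13 and USP38 differed by 0.39, -0.48 and -0.39 on the probe sets with the lowest p, while their brightest probe sets gave -0.01, 0.38 and -0.04. USP13 thus had probe sets of opposite sign. Without the third array with both hormones, USP13 was at -0.27 and USP38 at -0.17, and USP13 was at -0.77 without the 3 first arrays. USP48 read 7.53, 7.69 and 7.72 in the placebo arrays, 7.28, 7.41 and 7.96 under estrogen, 7.38, 7.49 and 7.42 under both hormones and 7.69, 8.55 and 8.38 under progesterone on MmugDNA.24021.1.S1_at, where both hormones minus progesterone was -0.77 ± 0.23 (adjusted p = 0.262). The progesterone arrays were all above those with both hormones, and its brightest probe set gave 0.18. USP15, which acts on TGF-beta signalling, was -0.39 ± 0.15 in both hormones minus estrogen, and its other 2 tested probe sets gave -0.16 and 0.00.

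USP14 is bound to the proteasome and trims ubiquitin from its substrates. Its probe set MmugDNA.2571.1.S1_at read 6.68, 9.22 and 6.21 in the placebo arrays, 8.39, 5.79 and 6.34 under estrogen, 7.26, 8.22 and 5.70 under both hormones and 5.90, 6.82 and 6.60 under progesterone. The second placebo, first estrogen and second combined arrays were far above the other arrays of their groups. No group stood apart, and the difference of progesterone from placebo was -0.93 ± 0.86 (adjusted p = 0.786). The other tested probe set, which shares the ID stem, had its highest values in the same 3 arrays.

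Of the OTU deubiquitinases, OTUB1, an abundant enzyme that also blocks E2s without cutting, read 8.98, 9.46 and 9.21 in the placebo arrays, 9.38, 9.44 and 9.53 under estrogen, 9.31, 9.55 and 9.66 under both hormones and 9.19, 8.81 and 8.63 under progesterone on MmugDNA.27886.1.S1_at. All 3 arrays with both hormones lay above the progesterone arrays, with a difference of 0.63 ± 0.18 (adjusted p = 0.250), and its brightest probe set gave 0.42 ± 0.19. OTUD3 on MmugDNA.14385.1.S1_at read 9.15, 9.23 and 8.98 in the placebo arrays, 9.50, 9.64 and 9.76 under estrogen, 8.89, 8.99 and 9.56 under both hormones and 9.60, 9.24 and 9.07 under progesterone. The 3 estrogen arrays lay above the placebo arrays and overlapped with those of the other groups, and the interaction was -0.68 ± 0.29 (adjusted p = 0.769). The other OTUD3 probe set gave 0.38 ± 0.60, the opposite sign. OTUD6A was 0.72 ± 0.26 under both hormones against placebo, where the first placebo array (7.39) was the lowest of the 12, and it was 0.34 without the 3 first arrays. OTUD4 was 0.44 ± 0.18 under progesterone, with 2 progesterone arrays above all others. OTUD7B, an OTU enzyme of NF-kappaB signalling, had probe sets at 0.31 and -0.01 under both hormones against placebo. OTUD5 ranged from 9.18 to 10.20 over the 12 arrays.

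In the UCH family, UCHL1, an enzyme of neurons, read 12.11, 12.25 and 12.26 in the placebo arrays, 12.17, 12.15 and 12.25 under estrogen, 12.36, 12.30 and 12.37 under both hormones and 12.24, 12.17 and 11.95 under progesterone on its brightest probe set. All 3 arrays with both hormones lay above the other 9, by little, and the third progesterone array was the lowest, with differences of 0.13 for both hormones and -0.09 for progesterone against placebo. A second UCHL1 probe set of the same ID stem gave -0.26 and 0.18, the opposite signs. Without the 3 first arrays, the brightest UCHL1 probe set gave 0.075 for both hormones against placebo. UCHL5, which works at the proteasome, ranged from 10.41 to 10.70, and UCHL3, which also processes NEDD8, from 7.51 to 8.23.

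**Figure D3:**
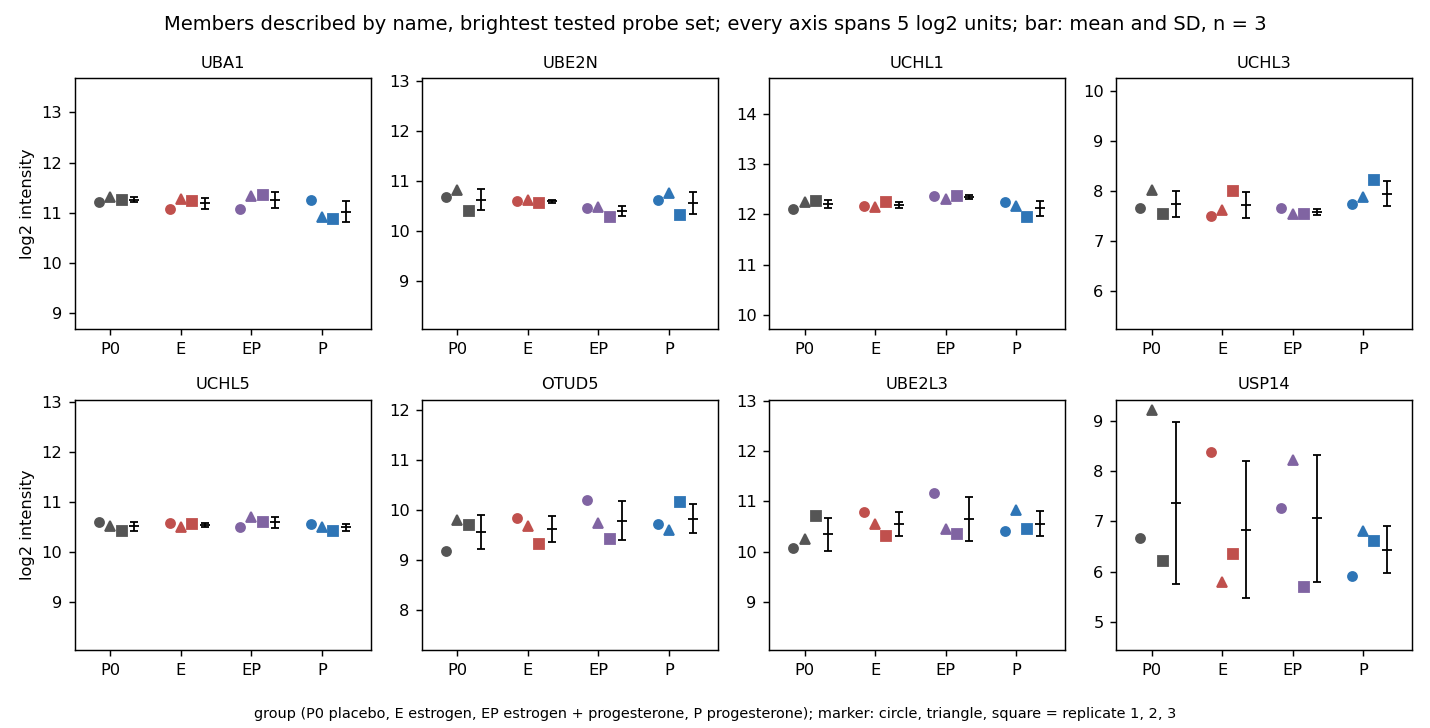
Log2 intensity (vertical axes, each spanning 5 log2 units) of 8 members described by name, on the brightest tested probe set, in each of the 12 arrays by group (horizontal axis); coloured markers are arrays and the black bar is the mean with SD, n = 3. UCHL1 stays between 11.95 and 12.37, while single arrays of USP14 spread from 5.70 to 9.22 within the groups.

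Different probe sets of a gene often disagreed on the direction. Of 40 member genes with 2 or more tested probe sets, all probe sets had the same sign in 21 for estrogen against placebo, in 17 for both hormones against placebo, in 15 for progesterone against placebo, in 18 for both hormones against estrogen and in 20 for both hormones against progesterone. Under progesterone the median range between the probe sets of a gene was 0.44, close to the half-width of the confidence interval of 1 probe set, and the widest was 1.78, in UBA7. The probe sets of UBA7, UBE2D3 and USP1 that lay farthest from placebo were not the brightest of their gene, as the plot of probe sets of the same gene shows.

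**Figure D4:**
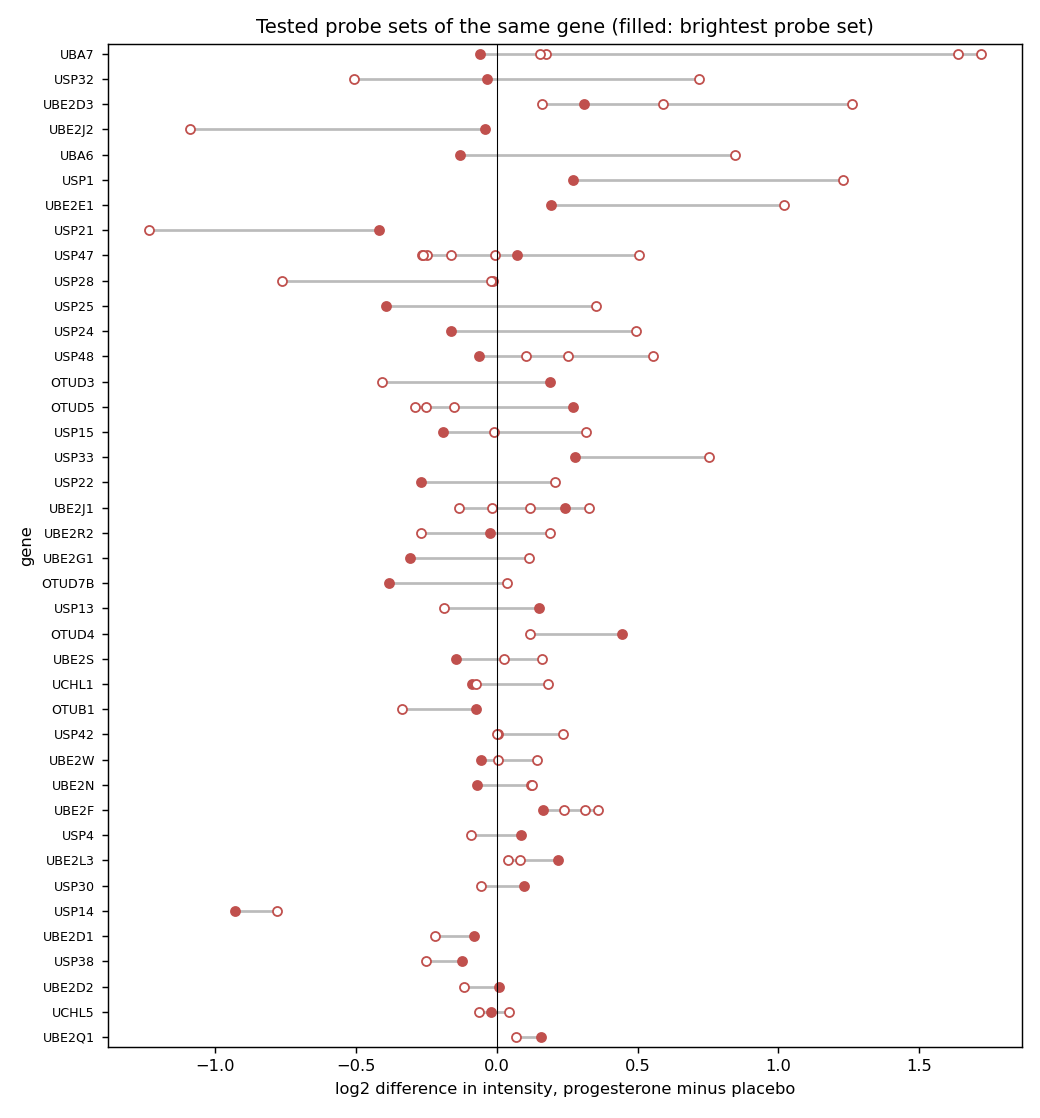
Log2 difference in intensity, progesterone minus placebo (horizontal axis), for every tested probe set of the 40 member genes with at least 2, ordered by range (vertical axis); points are probe sets, filled for the brightest, joined by a grey line. UBA7 has the widest range (1.78), and the lines of many genes cross 0.

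Seen per array, the members had no common shift by group. The array farthest from the mean of all 12 was most often the third progesterone array, for 26 of 135 member probe sets (19.3%, against 14.7% of all tested), and then the first placebo array, for 22 (16.3%, against 12.6%). In the heat map of the 65 genes the strongest colours are in single rows such as UBE2M and USP14.

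**Figure D5:**
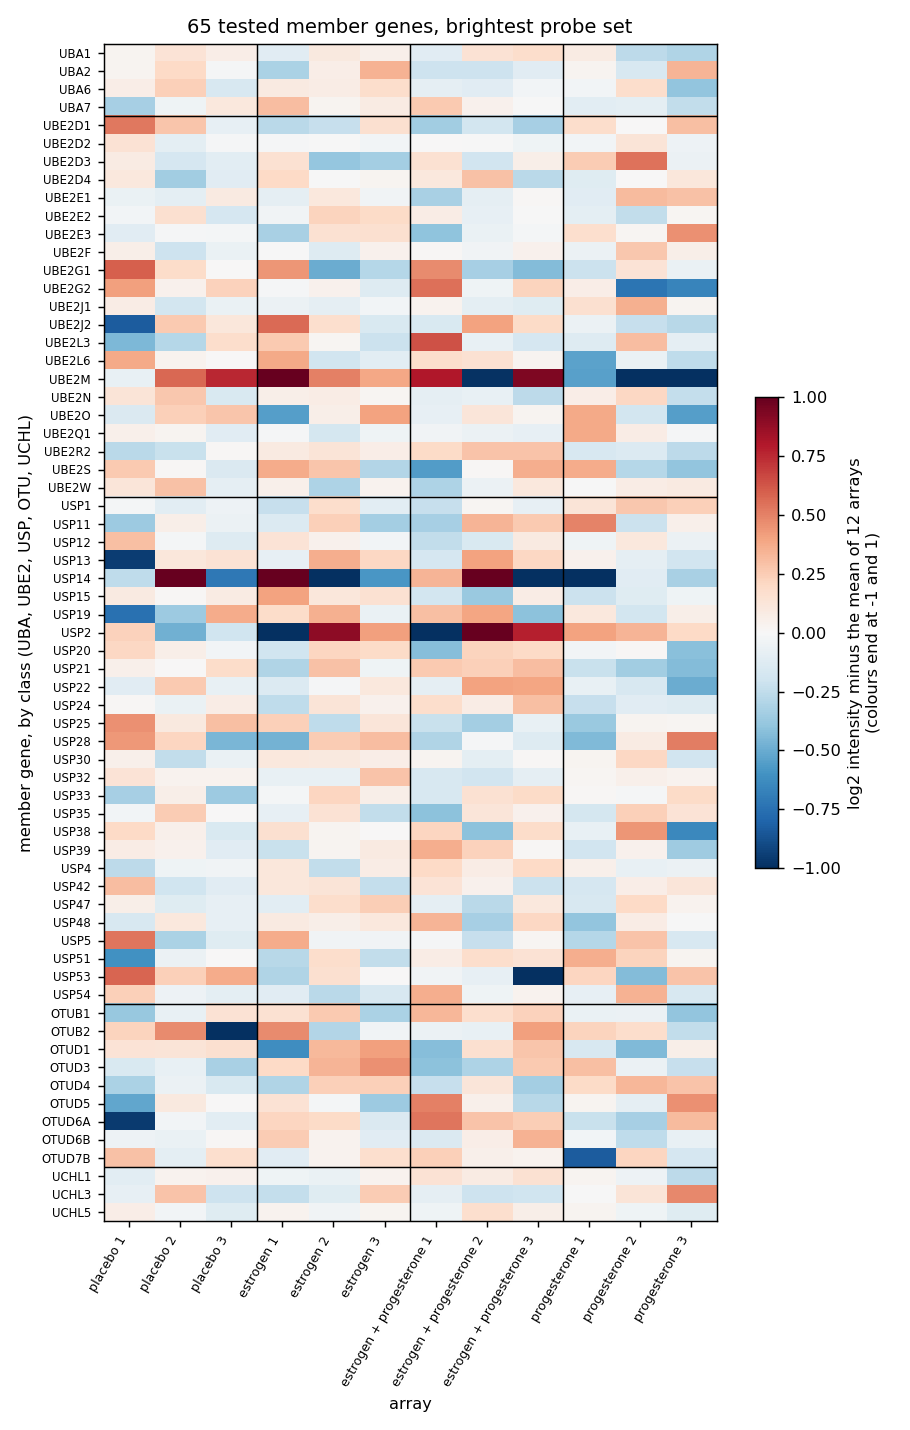
Log2 intensity minus its mean over the 12 arrays, by colour (blue lower, red higher, ending at -1 and 1), for the brightest tested probe set of 65 member genes (rows, by class) in the 12 arrays (columns, by group). No class changes colour as a whole with a group, and UBE2M is low in the 3 progesterone arrays and in 1 array with both hormones.

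The rest of the pathway was read from lists of ubiquitin genes outside the prefixes, and 0 probe sets passed in any list in any contrast. For progesterone against placebo, 21 of 28 HECT ligases were tested (9 higher and 12 lower, median -0.037), 33 of 50 RING and U-box ligases (12 and 21, -0.038), 18 of 24 cullins and SCF parts (7 and 11, -0.060), 26 of 40 other deubiquitinases (13 and 13, -0.012), 14 of 22 ubiquitin receptors and VCP partners (8 and 6, 0.048), and 8 of 12 ubiquitin-like proteins (5 and 3, 0.048), beside a median of -0.040 over all genes. These counts and medians are on the brightest probe set of each gene, while the following genes are given on the probe set with the lowest p over the contrasts, which can be another. UBXN4, a receptor protein that helps VCP at the endoplasmic reticulum, was at 2.95 ± 0.61 (adjusted p = 0.116), and at 0.67 on its brightest probe set. ATXN7L3, a partner of the SAGA deubiquitinase USP22, was at -0.57 ± 0.15 (adjusted p = 0.220). Of the ligases, ZNRF1 was at 0.70 ± 0.19 (adjusted p = 0.231), PJA2 at -0.74 ± 0.20 (adjusted p = 0.239), HUWE1 at -0.49 ± 0.15 (adjusted p = 0.269) and UBE3A at -0.57 ± 0.20 (adjusted p = 0.372).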

How the data were processed

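The deposited values were linear intensity, which the authors had scaled so that every array had a trimmed mean (2% off each end) of 200.0; the software is not given in the sources used. From 52865 probe sets, 99 controls were removed, values were floored at the 5th percentile (4.99 intensity), turned to log2 and quantile normalised, since array medians ran from 6.15 to 6.62. The 26383 probe sets whose mean reached the median of means (6.31) were fitted with limma 3.58.1 (lmFit, eBayes) in R 4.3.3 on all 12 arrays, with 1 mean per group, 8 residual and 3.54 prior degrees of freedom. Precision is limited by the number of animals, since arrays have no read depth, and an exact permutation test of 3 against 3 cannot go below p = 0.1.

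The members, the gene lists and the rule for naming were chosen with earlier results of these data known. The rule took members by lowest p in each contrast and direction (6 against placebo, 4 elsewhere), the 6 lowest of the F test and a short list by name. Of the names on that list, UBE2K and USP9X had no tested probe set with 1 symbol. Names came from the array's probe-to-gene table, where 24956 probe sets carried 1 symbol, 361 several and 27449 none; 5 with a member's symbol beside another were left out. The labels number the arrays of each group 1 to 3 but name no shared batch. Deviations from group means of same-numbered arrays correlated by over 0.1 in all 3 pairs of the combined group with placebo (0.103 to 0.274). The same held for its pairs with estrogen (0.142 to 0.507). Some differently numbered arrays also did so: estrogen 2 with combined 3 (0.250) and estrogen 3 with combined 2 (0.267). These values do not establish a pairing, and the fit with the replicate block is only an alternative. Over all groups the median was 0.027 in 18 same-numbered pairs and 0.012 in 36 others. The steps were tested on simulated data. Figures were drawn with matplotlib 3.10.9.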

Additional observations from a re-analysis of the deposited data

How the results depend on the processing

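Of 194 alternative counts of members passing the test, 191 were 0, as reported. They covered median alignment and the deposited scaling, other filters and floors, the brightest probe set per gene, only the arrays compared, leaving out 1 array at a time (lowest and highest count 0 and 0 in each contrast and in the F test) and the fit with the replicate block, which gave 0 in every contrast. The other 3 were 1, in progesterone against placebo (adjusted p = 0.0288), in both hormones against progesterone (0.0346) and in the F test (0.0350). All were from leaving out the first arrays of placebo, estrogen and both hormones, which had stood apart in these same data. The member was UBE2J2 in the contrasts, while the member behind the call of the F test was not recorded. The lowest adjusted p without 1 array was 0.0628, in progesterone against placebo without the third placebo array. For the 76 pairs of named member and comparison, 0 of 1565 alternative values passed the threshold. The median over member genes was less steady: 40 of its alternative values over the 8 contrasts moved by more than the spread between replicates and 133 did not, with a range under median alignment from -0.17 in progesterone against placebo to 0.11 in both hormones against progesterone.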
